A study of Mus musculus with 12 samples.

Results

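Bcl2-family proteins and the inhibitor of apoptosis proteins decide at several steps whether a stressed cell lives or dies. Here 10 genes of these families were followed in mouse aortic endothelial cells that lacked the transcription factor Ets1, Ets2 or both by their labels. The genes were chosen by name: Bcl2l1, Mcl1, Birc2, Birc3, Xiap and Cflar act for survival, and Bcl2l11, Bax, Bak1 and Bid act for death. A probe set was taken where its only annotated symbol was 1 of these. Of the 10 genes, 9 were matched, with 18 of the 20523 probe sets of the table, which carries 11015 genes by single symbols. Bax was not analysed here.

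The cells came from the aorta of mice at 4 weeks of age, and their RNA was read on Affymetrix arrays, with 3 labelled arrays in each of 4 groups. The cells had been kept in complete endothelial medium. Wild-type cells were Ets1+/+; Ets2+/+ and had received a lentivirus with egfp. For both single nulls the free-text description on the record names the deleted gene as wild type, against the title and genotype; the titles and genotypes are followed here. Ets1 null cells were Ets1-/-; Ets2fl/fl with the same egfp virus, so their Ets2 was floxed and that of wild type was not. Ets2 null cells were Ets1+/+; Ets2fl/fl with a virus of egfp and Cre, the recombinase that deletes floxed alleles. Ets1/2 null cells were Ets1-/-; Ets2fl/fl with the egfp-Cre virus. Cre was therefore present wherever Ets2 was labelled as deleted, and the effects of Cre and of Ets2 loss cannot be told apart. The titles call the arrays biological replicates, but not whether they stem from separate animals, so the p-values reflect only how far these arrays spread.

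The third column labelled Ets1/2 null was the mean of the other 2 columns in 20521 of 20523 probe sets and was left out, which left 2 arrays in that group and 11 in all. The exceptions were Birc3, with 6.53 in that column where the mean of 7.24 and 7 is 7.12, and Sphk1. Array medians lay between 9.05 and 9.15 (log2) in 9 arrays and at 8.29 and 8.3 in the Ets1/2 null arrays. Differences from these arrays are therefore given as deposited and centred, that is, after each array's median over all probe sets was subtracted; a rise or fall is stated there only where both were called. The brightest Ets1 probe set read 8.31, 8.76 and 9.17 in Ets1 null but 10.02 and 10.29 in the arrays labelled Ets1/2 null, against 10.26, 9.84 and 10.06 in wild type. It was thus higher in the arrays labelled Ets1/2 null than in Ets1 null by 1.41 ± 0.25 (SE, adjusted p = 0.00161, limma), and their group name below is the one on the label. Ets2 read 11.02 and 9.63 in the arrays labelled Ets1/2 null, a mean of 10.33 beside 10.14 for wild type (0.18 ± 0.42, adjusted p = 0.745; centred 0.98, adjusted p = 0.0935). Against Ets2 null it was 0.62 ± 0.42 (adjusted p = 0.25; centred 1.4, adjusted p = 0.0272), and Ets2 null itself differed from wild type by -0.44 ± 0.38 (adjusted p = 0.54). Ets1 in the arrays labelled Ets1/2 null differed from wild type by 0.1 ± 0.25 as deposited (adjusted p = 0.761, limma). Centred, it was called higher than wild type (0.9, adjusted p = 0.0235), Ets2 null (1.28, adjusted p = 0.0051) and Ets1 null (2.26, adjusted p = 0.000344). Neither targeted gene was thus called lower than wild type in these arrays, and Ets1 was called higher when centred. Ets1 was not called lower in Ets1 null either (-1.31 ± 0.23, adjusted p = 0.197, limma). Where the probe sets lie relative to the deleted exons is not known here. Of 21 listed endothelial markers, 7 were on the table (Cd34, Egfl7, Eng, Fabp4, Flt1, Kdr and Plvap). Their mean ranged from 8.82 to 9.69 over the wild-type arrays, 7.77 to 8.13 over Ets1 null, 9.54 to 10.15 over Ets2 null and 7.18 to 7.93 over Ets1/2 null. For 9 fibroblast markers it was 9.72 to 10.07, 8.87 to 9.65, 9.35 to 10.63 and 8.95 to 10.1 in the same order. Centred, the endothelial means were -0.29 to 0.65, -1.36 to -1.01, 0.46 to 1.09 and -1.12 to -0.37. The fibroblast means were 0.67 to 0.96, -0.26 to 0.51, 0.28 to 1.55 and 0.66 to 1.8. On both scales the endothelial mean thus lay below wild type in Ets1 null and Ets1/2 null, and the fibroblast mean in Ets1 null. The 6 leukocyte markers had 7.22 to 7.75, 7.48 to 7.58, 6.86 to 7.2 and 6.7 to 6.87 as deposited, so that Ets2 null and Ets1/2 null lay below wild type. Centred, Ets2 null still did (-2.21 to -1.86 against -1.82 to -1.36), and Ets1/2 null did not (-1.6 to -1.42). The 4 epithelial and mesothelial markers had 7.28 to 9.78, 9.84 to 10.25, 7.96 to 8.34 and 8.84 to 8.89, so that Ets1 null lay above wild type, also centred (0.69 to 1.11 against -1.77 to 0.67). The mean of the 9 smooth muscle markers overlapped with wild type in every group. Single markers did not always follow the mean of their list. In Ets1/2 null, Flt1 alone of the 7 endothelial markers averaged above wild type (8.63 against 7.85). The 2 Ets1/2 null arrays also differed widely in some markers: Cd34 read 9.7 and 5.66, Fabp4 10.39 and 6.1, and Acta2 14.05 and 10.51. They were alike in others, such as Eng at 7.44 and 7.39. In Ets2 null, Rgs5 averaged 12.38 and Acta2 9.28, against 7.44 and 11.95 in wild type. There Cd14 and Cd68 averaged 7.61 and 5.72 against 8.87 and 6.78, while Csf1r had 7.41 against 7.43. In Ets1 null, Krt19 and Msln averaged 13.98 and 10.11 against 10.59 and 7.01, while Epcam had 8.78 against 8.99. By a Y-linked gene, the male arrays were wild-type array 1 and the 3 of Ets2 null. In such bulk RNA, fewer cells of a type and less RNA per cell cannot be told apart, and the part of cell mixture and sex in the results below was not tested beyond the fits named.

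In the mitochondrial pathway, stress signals raise BH3-only proteins such as Bim (Bcl2l11) and Bid. These bind the survival proteins Bcl-xL (Bcl2l1) and Mcl-1 or act on the effectors Bax and Bak, which open the outer mitochondrial membrane and release cytochrome c. Cytochrome c and Apaf1 form the apoptosome, which starts the caspases. Xiap blocks caspases directly, cIAP1 (Birc2) and cIAP2 (Birc3) are ubiquitin ligases of tumour necrosis factor receptor signalling, and cFLIP (Cflar) keeps caspase-8 from being activated at death receptors. Endothelial cells depend on such survival proteins when growth factors are withdrawn. Bcl2l1 is itself a known target of Ets factors.

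Ets factors bind DNA around a core of GGAA, and the DNA upstream of the member genes is shown for this reason. The windows are the 250 bases before the most upstream transcript start in RefSeq (GRCm38.p6), given 5′ to 3′ on the gene's strand, with GGAA and its complement TTCC in capitals. Shown are Bcl2l1, the member with the largest difference in Ets1/2 null, Mcl1 and Bcl2l11, whose windows hold the longer motif CCGGAAG on one strand or the other, and Birc2, which was not called lower in any null.
Bcl2l1 (chr2:152831729-152831978, minus strand): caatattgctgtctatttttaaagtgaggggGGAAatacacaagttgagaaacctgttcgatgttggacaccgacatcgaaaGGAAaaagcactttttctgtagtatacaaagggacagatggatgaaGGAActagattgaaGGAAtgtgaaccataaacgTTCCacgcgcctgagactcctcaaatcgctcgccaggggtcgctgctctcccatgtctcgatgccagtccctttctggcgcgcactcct
Mcl1 (chr3:95658471-95658720, plus strand): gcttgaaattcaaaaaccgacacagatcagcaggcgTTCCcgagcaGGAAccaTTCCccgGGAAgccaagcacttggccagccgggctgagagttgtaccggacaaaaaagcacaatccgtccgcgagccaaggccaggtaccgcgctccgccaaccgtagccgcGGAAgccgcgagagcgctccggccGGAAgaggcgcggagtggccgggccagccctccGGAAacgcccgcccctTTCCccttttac
Bcl2l11 (chr2:128125788-128126037, plus strand): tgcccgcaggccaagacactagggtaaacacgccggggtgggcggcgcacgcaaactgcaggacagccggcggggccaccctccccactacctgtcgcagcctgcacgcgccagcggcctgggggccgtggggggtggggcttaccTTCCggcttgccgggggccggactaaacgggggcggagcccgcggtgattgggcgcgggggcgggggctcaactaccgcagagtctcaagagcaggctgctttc
Birc2 (chr9:7837058-7837307, minus strand): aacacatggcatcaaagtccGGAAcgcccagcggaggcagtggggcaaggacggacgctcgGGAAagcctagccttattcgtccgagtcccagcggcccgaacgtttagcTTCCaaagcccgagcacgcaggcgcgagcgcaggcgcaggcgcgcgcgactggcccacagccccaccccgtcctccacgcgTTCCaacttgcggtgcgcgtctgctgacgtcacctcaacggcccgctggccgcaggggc
GGAA was searched on both strands, and CCGGAAG contains it. The Bcl2l1 window held 5 matches to GGAA, Mcl1 8, Bcl2l11 1 and Birc2 4. Windows of the other members held 5 in Birc3, 6 in Xiap, 2 in Cflar, 2 in Bax, 7 in Bak1 and 5 in Bid. All 10 member windows held the core, with a median of 5 matches, but so did 93.4% of the windows of 27025 genes, whose median was 3. CCGGAAG was found in 2 of 10 member windows and in 7.07% of all. A match describes letters and not a bound site. Whether the number of matches goes with the differences below was not tested.

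**Figure D1:**
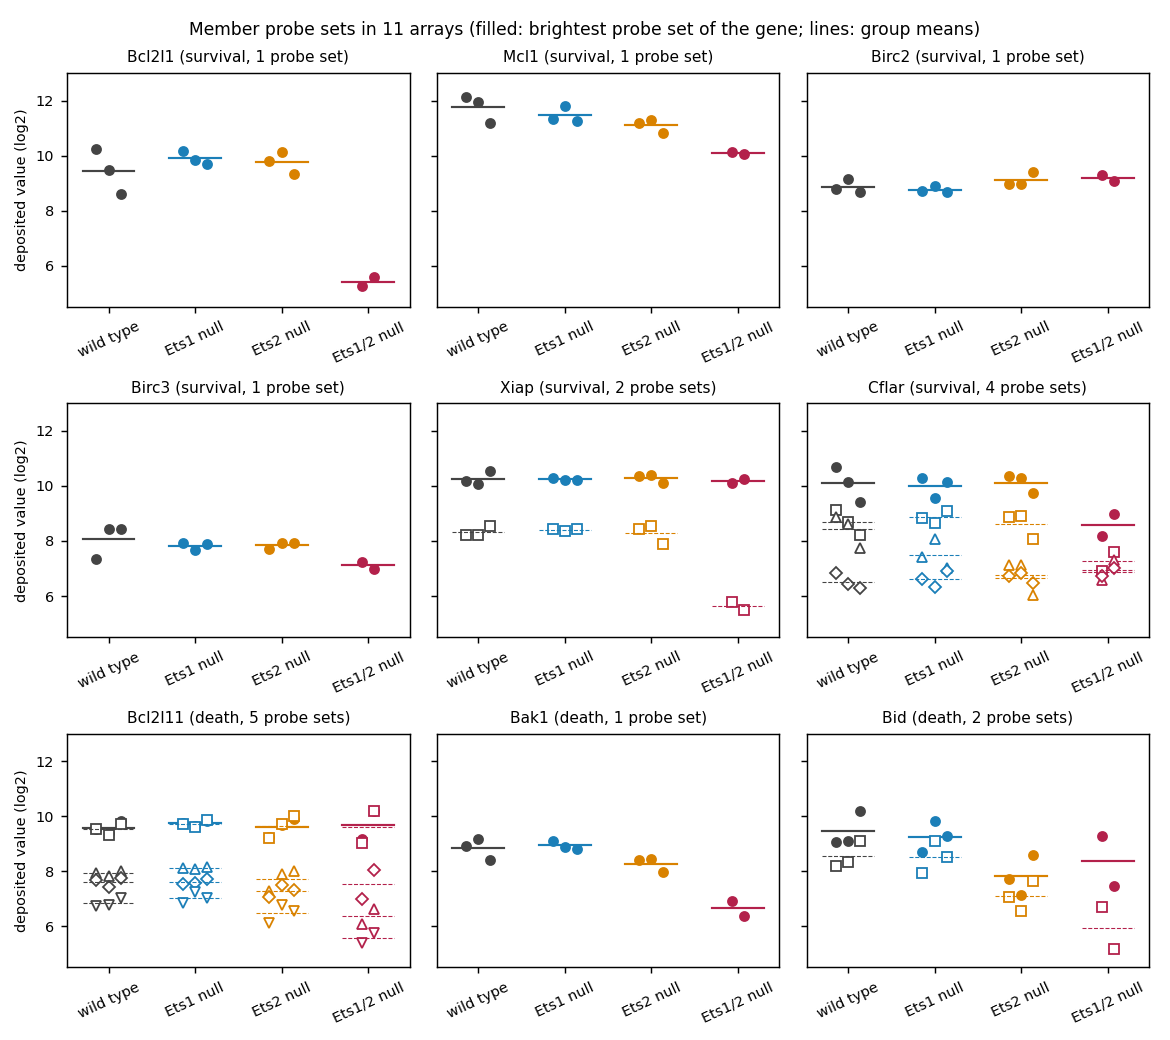
Deposited log2 values of the 18 member probe sets (y axis) in the 11 arrays of the 4 groups (x axis). Points are arrays, filled for the brightest probe set of a gene, with a symbol per probe set, and lines are group means; Bcl2l1 lies at 5.25 and 5.58 in the Ets1/2 null arrays and between 8.60 and 10.25 in the other 9.

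Loss of both factors, by the labels, went with lower levels of genes on both sides of the balance. In Ets1/2 null against wild type, 6 of 18 member probe sets fell in the deposited and the centred values: the survival genes Bcl2l1, Mcl1 and 1 probe set of Xiap, and the death genes Bak1 and 1 probe set each of Bid and Bcl2l11. No member rose in both. Of all 20523 probe sets, 14.4% were lower in both and 2.87% higher in both. As deposited, 11 of 18 members were called, every one lower, where 48.8% of all probe sets were called. Centred, 10 of 18 were called, 6 lower and 4 higher, where 36% of all were called (14.4% lower and 21.6% higher). The members' median difference was -1.34 as deposited, with 14 of 18 below wild type, and -0.55 centred, with 12 of 18 below. Over all probe sets the median was -0.63 with 80.3% below, and 0.16 with 41.5% below after centring. Calls are at a Benjamini-Hochberg adjusted p under 0.05 in limma over all probe sets, with n = 2 and 3.

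Bcl2l1 encodes Bcl-xL, which holds Bax and Bak inactive at the mitochondrion. Its probe set read 10.25, 9.48 and 8.60 across the wild-type arrays, 10.17, 9.84 and 9.71 across Ets1 null, 9.82, 10.13 and 9.35 across Ets2 null, and 5.25 and 5.58 across Ets1/2 null. Both Ets1/2 null arrays lay far below every other array, while the first 3 groups overlapped. The fall against wild type was -4.03 ± 0.42 (SE, adjusted p = 8.2e-05), a lower difference than in all but 0.521% of probe sets, and it was -3.23 centred (adjusted p = 0.000887). Against Ets1 null it was -4.49 ± 0.42 (adjusted p = 4.29e-05, centred -3.65), and against Ets2 null -4.35 ± 0.42 (adjusted p = 5.46e-05, centred -3.58). Neither single null was called against wild type: Ets1 null had 0.46 ± 0.38 (adjusted p = 0.751) and Ets2 null 0.33 (adjusted p = 0.665). Both Ets1/2 null values are under 6.5, the level that 1945 probe sets never passed in that group against 202 in wild type, so the size of the difference rests on dim readings. This gene has 1 probe set, and no other probe set could be set beside it.

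Mcl1, a short-lived survival protein of the same family, read 12.13, 11.96 and 11.20 across the wild-type arrays, 11.35, 11.81 and 11.25 across Ets1 null, 11.20, 11.31 and 10.84 across Ets2 null, and 10.12 and 10.05 across Ets1/2 null. As deposited, the Ets1/2 null arrays were the lowest of the 11. Centred, they had 1.82 and 1.75, beside 1.77 in Ets2 null array 3. The fall was -1.68 ± 0.29 (adjusted p = 0.00129), but only -0.88 centred (adjusted p = 0.0451). The centred call held in 3 of 11 fits that left out 1 array, with adjusted p up to 0.156. It was not called in the centred values against Ets1 null (-1.39 deposited, -0.54 centred, adjusted p = 0.187) or Ets2 null (-1.03 and -0.26, adjusted p = 0.527).

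Among the inhibitors of apoptosis, Xiap gave opposite pictures through its 2 probe sets. The dimmer, 1456088_at, read 8.21, 8.22 and 8.54 across the wild-type arrays, 8.42, 8.35 and 8.43 across Ets1 null, 8.45, 8.55 and 7.88 across Ets2 null, and 5.79 and 5.48 across Ets1/2 null. The groups other than Ets1/2 null overlapped, and that group lay apart from them. It fell by 2.69 ± 0.22 on the log2 scale against wild type (adjusted p = 1.99e-05; centred -1.89, adjusted p = 0.000397). As with Bcl2l1, both Ets1/2 null values are under 6.5, so the size of this difference rests on dim readings. The brighter, 1437533_at, read 10.19, 10.06 and 10.53 across wild type and 10.12 and 10.27 across Ets1/2 null, with all other arrays between 10.09 and 10.41. Its difference was -0.06 ± 0.17 as deposited (adjusted p = 0.78) and 0.73 centred (adjusted p = 0.0105), so centring turned its direction. Both probe sets are annotated with the same design sequence. The level of Xiap in Ets1/2 null therefore depends on the probe set that is read.

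Birc2 encodes cIAP1 and read 8.81, 9.14 and 8.69 across the wild-type arrays, 8.71, 8.90 and 8.68 across Ets1 null, 8.98, 8.99 and 9.41 across Ets2 null, and 9.29 and 9.07 across Ets1/2 null. As deposited, every group overlapped with wild type. Centred, the Ets1/2 null arrays lay above it, at 0.99 and 0.77 against -0.23, 0.03 and -0.42. The Ets1/2 null difference was 0.3 ± 0.19 as deposited (adjusted p = 0.231) and 1.09 centred (adjusted p = 0.00266). Birc3, which encodes cIAP2, read 7.35, 8.43 and 8.43 across the wild-type arrays, 7.92, 7.67 and 7.88 across Ets1 null, 7.71, 7.93 and 7.91 across Ets2 null, and 7.24 and 7 across Ets1/2 null. The first wild-type array lay nearer to Ets1/2 null than to the other wild-type arrays. Its deposited difference was -0.95 ± 0.3 (adjusted p = 0.0271), and the centred values overlapped (-0.15, adjusted p = 0.704). Thus neither cIAP gene was called in the same direction on both scales.

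Cflar encodes cFLIP and had 4 probe sets. The brightest, 1424996_at, read 10.68, 10.16 and 9.43 across the wild-type arrays, 10.28, 9.57 and 10.14 across Ets1 null, 10.35, 10.28 and 9.73 across Ets2 null, and 8.18 and 8.97 across Ets1/2 null. Ets1/2 null lay below all other arrays as deposited, by -1.52 ± 0.4 against wild type (adjusted p = 0.0113), and overlapped with wild type once centred (-0.73, adjusted p = 0.196). 1425686_at (-1.42 ± 0.35, adjusted p = 0.00865, centred -0.63) and 1449317_at (-1.47 ± 0.47, adjusted p = 0.0277, centred -0.68) likewise were called only as deposited. The dimmest, 1425687_at, was called only centred and in the other direction (0.35 deposited, 1.15 centred, adjusted p = 0.00557). No Cflar probe set was called on both scales.

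**Figure D2:**
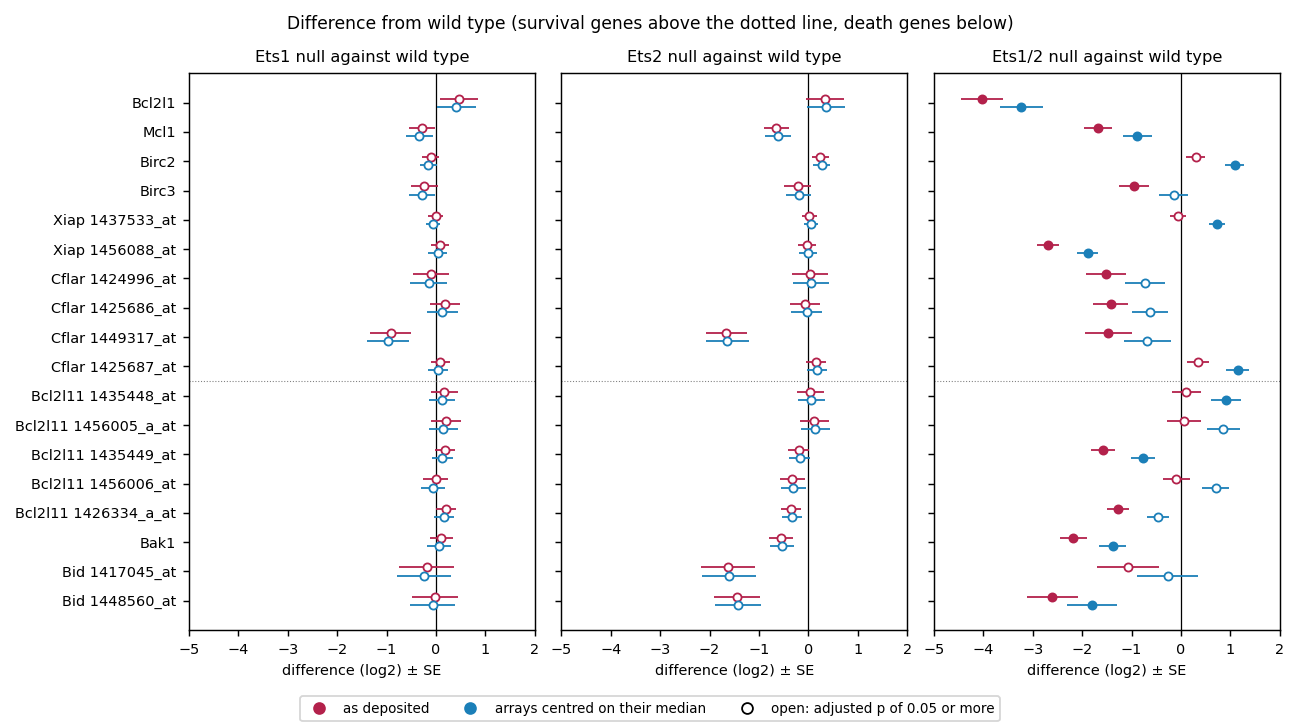
Log2 difference from wild type (x axis) of the 18 member probe sets (y axis) in Ets1 null, Ets2 null and Ets1/2 null, with bars of 1 limma SE. Red is as deposited and blue centred, and filled points are called; the single nulls have no filled point, and in Ets1/2 null 6 probe sets are filled to the left of 0 in both colours.

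On the death side, Bak1 encodes Bak, an effector that permeabilises mitochondria. Its values were 8.93, 9.18 and 8.39 across the wild-type arrays, 9.11, 8.89 and 8.82 across Ets1 null, 8.40, 8.44 and 7.96 across Ets2 null, and 6.93 and 6.38 across Ets1/2 null. Ets1/2 null was below every other array, and the Ets2 null arrays sat at the low end of wild type. Against wild type it fell by 2.18 ± 0.27 (adjusted p = 0.000196; centred -1.38, adjusted p = 0.00482), and both scales were called against each single null too. The centred call against Ets2 null (-0.84, adjusted p = 0.0402) held in 4 of 11 fits with 1 array left out, with adjusted p up to 0.237.

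Bid, the BH3-only protein that caspase-8 cleaves to link death receptors to mitochondria, had 2 probe sets that share a design sequence. 1417045_at read 9.06, 9.11 and 10.19 across the wild-type arrays, 8.70, 9.81 and 9.27 across Ets1 null, 7.73, 7.15 and 8.58 across Ets2 null, and 9.28 and 7.48 across Ets1/2 null. 1448560_at read 8.20, 8.34 and 9.08, then 7.95, 9.10 and 8.5, then 7.05, 6.55 and 7.66, then 6.70 and 5.18 in the same order of groups. Both probe sets differed from wild type by like amounts in each single null, while in Ets1/2 null the second lay below all wild-type arrays and the first overlapped with them. The second fell by 2.6 ± 0.52 against wild type (adjusted p = 0.00301; centred -1.8, adjusted p = 0.0235), and the first had -1.07 ± 0.62 (adjusted p = 0.181; centred -0.27). The centred call was lost without Ets1/2 null array 2 (-1.04, adjusted p = 0.189) and without wild-type array 3.

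Bcl2l11 encodes Bim, the BH3-only protein tied to growth factor withdrawal, and had 5 probe sets. 1435449_at read 7.94, 7.81 and 8.02 across the wild-type arrays, 8.10, 8.07 and 8.14 across Ets1 null, 7.28, 7.89 and 8 across Ets2 null, and 6.07 and 6.64 across Ets1/2 null. It fell by 1.57 ± 0.24 (adjusted p = 0.000594; centred -0.77, adjusted p = 0.0318), a centred call that was lost without Ets1/2 null array 1 (-0.49, adjusted p = 0.208) and without wild-type array 1 or 3. The brightest, 1435448_at, shares its design sequence and read 9.52, 9.39 and 9.81 in wild type but 9.18 and 10.20 in Ets1/2 null, which lie on either side of wild type. Its difference was 0.11 as deposited (adjusted p = 0.775) and 0.91 centred (adjusted p = 0.0418). 1426334_a_at, which also stayed under 6.5 in Ets1/2 null, was called lower only as deposited (-1.27 ± 0.22, adjusted p = 0.00143, centred -0.47). 1456005_a_at (0.06, centred 0.86) and 1456006_at (-0.09, centred 0.7) were called on neither scale. As with Xiap, one reading of Bim was lower and another was not.

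The disagreement between probe sets of a gene was wide in the Ets1/2 null comparison. The range of differences over its probe sets was 2.62 for Xiap, 1.87 for Cflar, 1.68 for Bcl2l11 and 1.53 for Bid, where the median over the 4785 genes with several probe sets was 0.9. These ranges were wider than in 93.4% of those genes for Xiap, 83.1% for Cflar, 78.8% for Bcl2l11 and 74.6% for Bid. The genes compared have any number of probe sets, and a range over 4 or 5 tends to be wider than a range over 2. For Ets1 null the median range was 0.17 and for Ets2 null 0.24, and Xiap had 0.09 and 0.05. Cflar was spread in these as well, with 1.1 and 1.81. The difference also varied with brightness over all probe sets, with medians over 5 bins of wild-type level of -0.34 in the dimmest, -0.69, -0.76 and -0.76 in the middle and -0.68 in the brightest. Their part in the members' values was not tested.

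**Figure D3:**
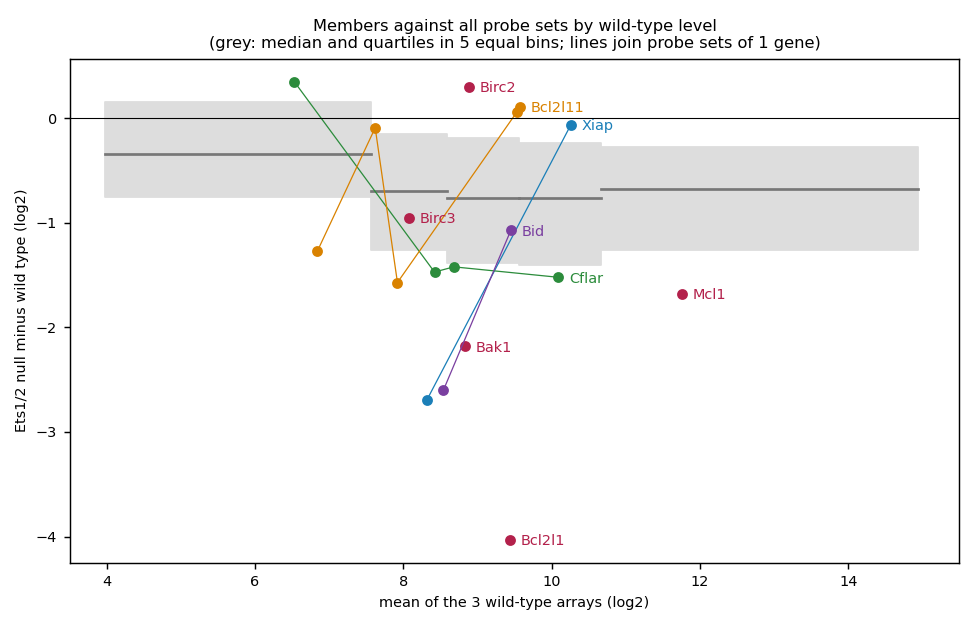
Mean of the 3 wild-type arrays (x axis, log2) against the Ets1/2 null minus wild type difference (y axis, log2) for the 18 member probe sets, as points, with lines joining the probe sets of a gene. Grey boxes give the median and quartiles of all 20523 probe sets in 5 bins of equal number; Bcl2l1 lies at -4.03, and the Xiap line spans -0.06 to -2.69.

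Ets1 null cells showed no called change in any member. Of 18 probe sets 0 were called, where 0.00487% of all (1 probe set) were called, and at an unadjusted p under 0.05 there were 0 members and 1900 probe sets. The median difference of the members was 0.03, the same as that of all probe sets, with 9 of 18 below wild type. The largest was in Cflar 1449317_at, at 8.89, 8.62 and 7.75 across wild type and 7.43, 8.06 and 7.02 across Ets1 null (-0.92 ± 0.42, adjusted p = 0.55), with overlapping groups. Bcl2l11 1435449_at was the only member probe set without overlap, at 0.18 ± 0.21 above wild type. The share of all probe sets without overlap was not counted.

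In Ets2 null cells the lowest readings against wild type were those of Bid and of 1 Cflar probe set. Bid had -1.63 ± 0.55 by 1417045_at (adjusted p = 0.155) and -1.45 ± 0.47 by 1448560_at (adjusted p = 0.142), and Cflar 1449317_at, at 7.14, 7.11 and 6.03, had -1.66 ± 0.42 (adjusted p = 0.0916). In these 3 probe sets every Ets2 null array lay below every wild-type array, but none passed the threshold. How many of all probe sets were separated in this way was not counted, so no weight is put on it. Mcl1 (-0.65 ± 0.26, adjusted p = 0.206) and Bak1 (-0.56 ± 0.24, adjusted p = 0.228) overlapped with wild type. Of 18 member probe sets 0 were called by limma, where 0.58% of all were called, and 5 members and 4248 probe sets had an unadjusted p under 0.05. When limma weighted the arrays, 5 of 18 were called lower, namely Mcl1, Cflar 1449317_at, Bak1 and both Bid probe sets, where 13.1% of all were called. With a term for male arrays Bid had -1.24 and -1.11. All Ets2 null arrays and only wild-type array 1 were male, so that fit in effect compares Ets2 null with this 1 array. It cannot tell the part of sex in the difference. Ets2 null array 3 stood apart in its cell cycle genes, whose mean was 6.77 there and 11.25 to 12.06 in the other arrays outside Ets1/2 null, which had 10.27 and 9.05; its Bid readings were the highest of that group.

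Setting the survival genes against the death genes in every array gave no common direction across the nulls. For each gene the brightest probe set's shift from the wild-type mean was taken, and the mean over 6 survival genes and over 3 death genes was formed in each array. In the wild-type arrays survival minus death was 0.27, 0.18 and -0.45 (log2), which sets the spread at an SD of 0.39. In the Ets1 null arrays it was 0.14, -0.25 and -0.13, within the wild-type range, with a mean of -0.08 that became -0.3 without wild-type array 3. Ets2 null arrays had 0.82, 0.95 and 0.28, a mean of 0.68 ± 0.36 (SD, n = 3), each above every wild-type array, though the lowest, 0.28, nearly touches the highest wild-type value of 0.27. There the survival genes shifted by -0.02, 0.09 and -0.2 and the death genes by -0.83, -0.86 and -0.47, of which Bid alone had -1.72, -2.3 and -0.87. Bak1 had -0.43, -0.39 and -0.88, and Bcl2l11 -0.35, 0.12 and 0.33. In arrays 1 and 2 the shift of the death genes thus rested largely on Bid, and the score was not formed without it. Array 3 of this group was the nearest to wild type.

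In the Ets1/2 null arrays survival minus death was -0.56 and 0, a mean of -0.28 ± 0.4 (SD, n = 2), which overlaps with wild type. As deposited the survival genes shifted by -1.38 and -1.26 and the death genes by -0.82 and -1.27. After centring, the survival genes were at -0.59 and -0.47 and the death genes at -0.03 and -0.47. The difference within an array is the same on both scales, since centring subtracts 1 value from both. It rested on Bcl2l1, whose shifts were -4.19 and -3.87: without this gene the mean was 0.26. With all probe sets of each gene averaged it was 0.06, and with the median over genes 0.01. No test was made of the score.

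**Figure D4:**
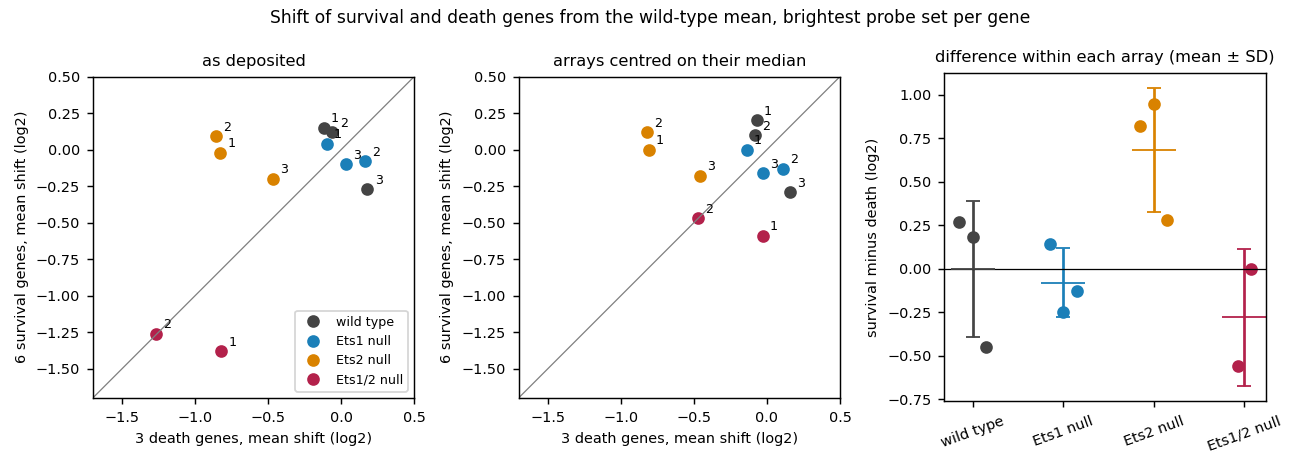
Mean shift from wild type of the 6 survival genes (y axis) against the 3 death genes (x axis), in log2, for the 11 arrays as deposited (left) and centred (middle), with the replicate number beside each point and the line of equal shift. The right panel gives survival minus death per array with the group mean ± SD; Ets2 null arrays lie at 0.82, 0.95 and 0.28 and Ets1/2 null arrays at -0.56 and 0.

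The design also allows an interaction: the difference between Ets1/2 null and Ets1 null, minus that between Ets2 null and wild type. Bcl2l1 had an interaction of -4.82 ± 0.57 (adjusted p = 0.000329; centred -3.99, adjusted p = 0.00265). Xiap 1456088_at had -2.74 ± 0.29 (adjusted p = 0.000191; centred -1.91, adjusted p = 0.00308). These 2 of 18 were lower in both scales, where 9.36% of all probe sets were. As deposited 6 of 18 were called, where 35.5% of all were called, and the other four were Bak1, Cflar 1425686_at and Bcl2l11 1435449_at and 1426334_a_at. The members' median was -0.61 beside -0.63 over all, and 0.21 beside 0.19 centred, so the list as a whole sat at the level of the table.

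The comparisons of Ets1/2 null with either single null use the same 2 Ets1/2 null arrays. Against Ets1 null 9 of 18 members were called as deposited, where 47.8% of all were called, and 5 were lower in both scales (13.7% of all). These 5 were Bcl2l1, Xiap 1456088_at (-2.76, centred -1.92), Bak1 (-2.29, centred -1.45), Bid 1448560_at (-2.58, centred -1.73) and Bcl2l11 1435449_at (-1.75, centred -0.91). The centred call of Bid was lost in 3 of 11 fits with 1 array left out, those without Ets1 null array 2 or 3 and without Ets1/2 null array 2 (-0.97, adjusted p = 0.214), and that of Bcl2l11 without Ets1/2 null array 1 (-0.62, adjusted p = 0.126). Against Ets2 null 8 of 18 were called as deposited, where 48.8% of all were, and 3 were lower in both (14.9% of all): Bcl2l1, Xiap 1456088_at (-2.66, centred -1.88) and Bak1 (-1.61, centred -0.84). Bid was not among them, its second probe set being -1.15 ± 0.52 (adjusted p = 0.098). Bcl2l1 and Xiap 1456088_at were called in the centred values of all 3 Ets1/2 null comparisons and the interaction with each of the 11 arrays left out in turn.

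Across the 11 centred arrays, the genes most like Bcl2l1 were Gnb2 (Pearson's r = 0.988), Cenpb (0.982) and Ier5l (0.98). Over the 9 arrays without Ets1/2 null these were 0.89, 0.817 and 0.799, and 75 genes reached 0.95 or more over the 11, so the Ets1/2 null arrays carried much of the likeness. Mcl1 was most like Slc25a13 (0.951, and 0.974 without Ets1/2 null), Junb (0.933 and 0.92) and Zfp33b (0.932 and 0.914). For Bak1 the nearest were Lypla1 (0.947 and 0.906), Leprotl1 (0.941 and 0.884) and Atic (0.934 and 0.849). These arrays share groups and normalisation, and the values are descriptions.

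Other genes of the pathway were taken from role lists of 51 genes, of which 35 were on the table, each read by its brightest probe set. In either single null 0 of 35 were called by limma. In Ets1/2 null against wild type 3 fell and 1 rose in both scales, against 14.4% and 2.87% of all probe sets. As deposited 18 of 35 were lower and 1 higher, where 46% of all probe sets were lower and 2.87% higher. Centred, 3 were lower and 4 higher, where 14.4% of all were lower and 21.6% higher.

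The BH3-only genes had 1 fall among 5 on the table. Bad, which binds Bcl-xL when it is not phosphorylated, read 10.82, 10.87 and 11 across the wild-type arrays, 10.99, 10.96 and 10.79 across Ets1 null, 10.81, 10.74 and 11.08 across Ets2 null, and 9.11 and 8.93 across Ets1/2 null. The first 3 groups lay between 10.74 and 11.08, and Ets1/2 null fell below them by 1.88 ± 0.15 (adjusted p = 1.93e-05; centred -1.09, adjusted p = 0.000887). Bbc3, which encodes Puma, had -1.15 ± 0.44 (adjusted p = 0.0544; centred -0.36). Pmaip1, which encodes Noxa, ranged from 4.12 to 8.01 within wild type.

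Other Bcl2-related genes held the single rise. Bnip3, a mitochondrial protein of hypoxia and mitophagy, read 11.73, 12.07 and 12.82 across the wild-type arrays, 11.16, 12.91 and 12.52 across Ets1 null, 10.12, 10.38 and 11.57 across Ets2 null, and 13.79 and 13.75 across Ets1/2 null. Ets1/2 null was above every other array, by 1.56 ± 0.57 against wild type (adjusted p = 0.0478; centred 2.36, adjusted p = 0.0113). Its interaction was 3.09 ± 0.77 (adjusted p = 0.0131). Bcl2l12 turned direction with centring, from -0.72 to 0.08, and was called only as deposited. Bcl2l14 did so in the interaction, from -0.78 to 0.04. Of the survival genes besides the members, Bcl2 and Bcl2l2 were on the table. Bcl2 had 0.64 ± 0.55 (adjusted p = 0.362, centred 1.43, adjusted p = 0.068). Bcl2l2 had 0.19 ± 0.21 against wild type and was called only centred (0.98, adjusted p = 0.00631, limma). Against Ets1 null Bcl2l2 turned from -0.07 to 0.78 with centring and was called only centred (adjusted p = 0.0178).

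Among apoptosome and mitochondrial factors, 1 of 6 fell. Htra2, a mitochondrial protease that binds inhibitor of apoptosis proteins once released, read 9.90, 10.04 and 10.69 across wild type and 7.81 and 7.34 across Ets1/2 null, with the single nulls between 9.59 and 10.21. The fall was -2.63 ± 0.27 (adjusted p = 6.91e-05; centred -1.84, adjusted p = 0.00109). Diablo, which acts on the same inhibitors, was called as deposited (-0.54 ± 0.14, adjusted p = 0.0118) and lay on the other side of 0 centred (0.26, adjusted p = 0.183). Apaf1 had -0.31 ± 0.23 (adjusted p = 0.289, centred 0.49, adjusted p = 0.123). Against Ets1 null Apaf1 turned from -0.07 to 0.78 with centring (adjusted p = 0.0262, limma). Endog turned from -0.02 to 0.75 against Ets2 null (adjusted p = 0.0368), and both were called only centred.

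No caspase of 5 on the table was called in both scales; Casp8, the caspase that cFLIP holds back, had 0.11 ± 0.41 (adjusted p = 0.842; centred 0.91, adjusted p = 0.121), and Casp9 turned from -0.61 to 0.18 with centring. Of 7 death receptors and adaptors 0 were called in both against wild type, and Fas had 0.92 ± 0.9 (adjusted p = 0.422; centred 1.72, adjusted p = 0.169). Against Ets1 null the adaptors Traf2 (-1.53, centred -0.69) and Cradd (-1.52, centred -0.68) were lower in both, as was Birc6 (-1.79, centred -0.95), a large ubiquitin ligase of the inhibitor of apoptosis family. Parp1, a DNA repair enzyme and caspase substrate, read 11.16, 11.17 and 10.77 across wild type and 8.73 and 9.13 across Ets1/2 null, a fall of -2.1 ± 0.23 (adjusted p = 0.000101; centred -1.3, adjusted p = 0.00325). Birc5, a BIR protein of dividing cells, read 6.31 in Ets2 null array 3 and 11.82 and 11.51 in the other Ets2 null arrays, which is the array whose cell cycle genes were low.

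**Figure D5:**
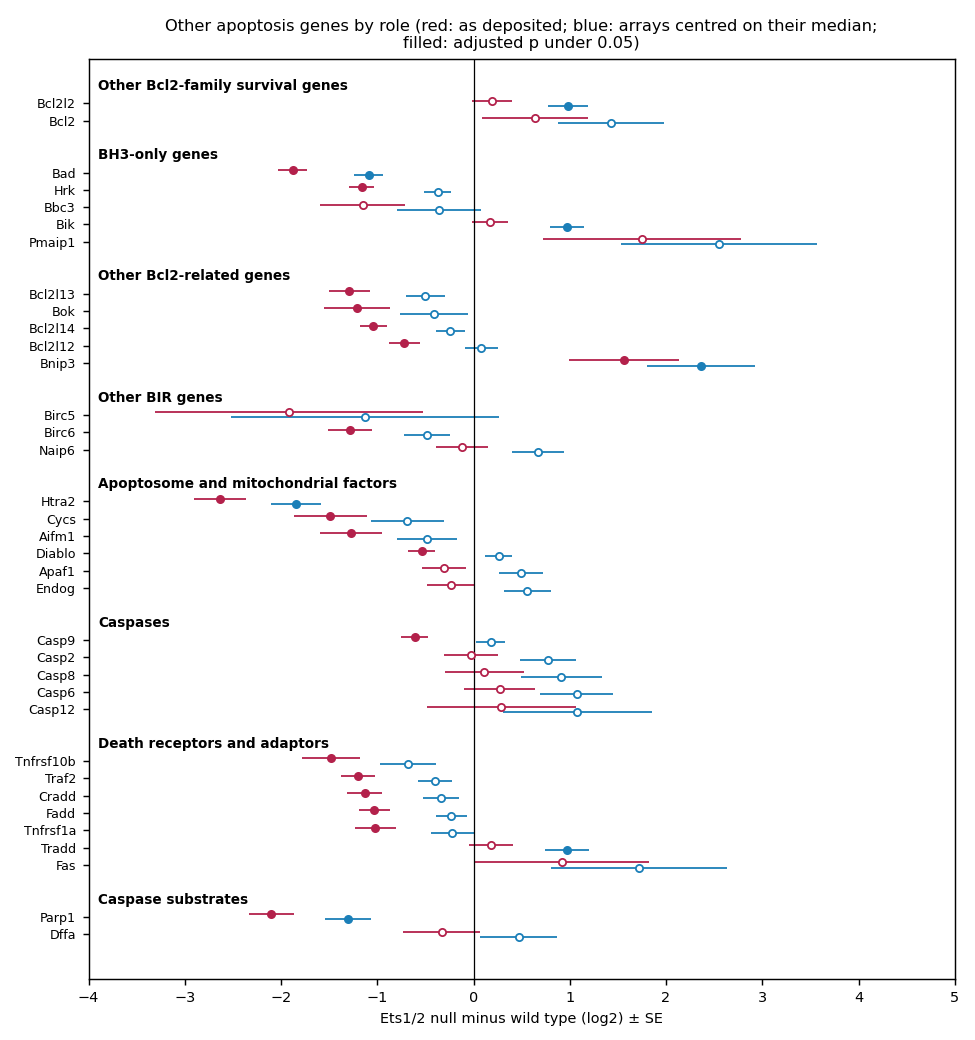
Ets1/2 null minus wild type (x axis, log2, with 1 limma SE) for 35 other apoptosis genes grouped by role (y axis), as deposited in red and centred in blue, filled where called. Bad, Htra2 and Parp1 are filled to the left of 0 in both colours and Bnip3 to the right.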

How the data were processed

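The deposited values are log2 expression, 1 per probe set and array, made by the authors with RMA, per the submitters' processing notes. The version, a filter and a joint run of the arrays are not stated in these sources. Symbols came from the platform annotation: 18824 probe sets carry 1 symbol, 549 several and 1150 none. limma 3.58.1 in R 4.3.3 (lmFit and eBayes, two-sided) fitted a mean per group to all 20523 probe sets of 11 arrays with 7 residual degrees of freedom, and p-values were adjusted by Benjamini-Hochberg over all of them. It was tested on simulated data. Differences carry limma's SE. The design written for the fit already left out the third Ets1/2 null column. pandas 2.3.3 and matplotlib 3.10.9 were used for tables and plots.

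All member probe sets were named. Of the other apoptosis genes, those called with both scales in 1 direction were named, at most 5 per list, those called with opposite directions, and a well-known gene per list. The members and lists were chosen with earlier results of these data known. Alternatives were centring, quantile normalization, 1 probe set or the mean per gene, a filter on dim probe sets (a group mean of 8 or more), array weights, a term for male arrays (Eif2s3y above 6), only the compared groups, all 12 columns, the replicate number as a block and each array left out. The precision is set by the number of arrays, since these give no counts.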

Additional observations from a re-analysis of the deposited data

Results flagged for a closer look

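The interaction (Ets1/2 null minus Ets1 null, less Ets2 null minus wild type) differed from 0 in limma for these genes. Among the members Bcl2l1 had -4.82, Xiap 1456088_at -2.74, Bak1 -1.72, Bcl2l11 1435449_at -1.55 and 1426334_a_at -1.12, and Cflar 1425686_at -1.54. Of these, Bcl2l1 and Xiap were also called centred, while Bak1 had an adjusted p of 0.115, Bcl2l11 0.141 and 0.513, and Cflar 0.328 there. Among the other apoptosis genes Bad had -1.88 (centred -1.06, adjusted p = 0.00752), Htra2 -2.28 (centred -1.46, adjusted p = 0.0204) and Bnip3 3.09 (centred 3.91, adjusted p = 0.00863). Every one of these values rests on the same 2 arrays labelled Ets1/2 null. In these arrays neither Ets1 nor Ets2 was called lower than in wild type, and Ets1 was called higher when centred (0.9, adjusted p = 0.0235, limma). The targeted gene was not called lower in either single null as well, so the groups are named by their labels.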

How the results depend on the processing

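Over the alternatives of the member probe sets, 1996 values stayed on their side of the threshold, 50 passed it anew, 72 no longer passed it, and 6 were called in the direction opposite to the uncalled value reported. Of the 1996, 594 were called both ways and kept their direction; among the others, not called either way, 122 changed sign. The 6 are those of Xiap 1437533_at in Ets1/2 null against wild type, Ets1 null and Ets2 null, at 0.73, 0.79 and 0.69 with centring and 0.57, 0.61 and 0.51 with quantile normalization. Of 18 probe sets, limma called 0 for Ets2 null against wild type, while array weights gave 5 and all 12 columns gave 1. Over all probe sets array weights gave 2687 and all 12 columns 826. With 1 probe set per gene 9 genes are counted. Ets1/2 null against wild type then gave 5 by the brightest and 7 by the mean (11 of 18 otherwise). Against Ets1 null it gave 4 by the brightest (9), and against Ets2 null 4 by either (8), or 3 with a term for male arrays. Over all 11015 genes the brightest gave 5054 against wild type, 4900 against Ets1 null and 5103 against Ets2 null. The mean gave 5588 against wild type and 5716 against Ets2 null. With the male term 4541 of all 20523 probe sets were called against Ets2 null. The interaction gave 3 with centring, 3 with quantile normalization, 2 by the brightest and 3 by the mean (6). Over all probe sets centring gave 4034 and quantile normalization 3536, and over all genes the brightest gave 3479 and the mean 4173. The score of Ets1/2 null was 0.26 without Bcl2l1. With an array of the other groups left out, Ets1/2 null gave 9 to 11 calls against wild type and 9 to 10 against Ets1 null. It gave 8 to 9 against Ets2 null and 5 to 7 in the interaction. These ranges leave out the fits with 1 Ets1/2 null array, of which that without array 1 gave a lower count in each comparison. Either single null gave 0 with any array left out. With any array left out, the score ran from -0.3 to 0.05 for Ets1 null, from 0.46 to 0.88 for Ets2 null and from -0.56 to 0 for Ets1/2 null. Calls over all probe sets moved too. While Ets1/2 null kept its 2 arrays, they were 9013 to 10719 against wild type and 8287 to 10468 against Ets1 null. Against Ets2 null they were 8623 to 10561, and in the interaction 5977 to 7704. They were 1 to 69 for Ets1 null and 0 to 260 for Ets2 null against wild type. Leaving out arrays in the centred values was chosen after seeing the data. Deviations from the group means correlated with r from -0.306 to 0.1 in 15 same-numbered pairs, and -0.192 to 0.306 in 30 others. Deviations cancel within a group, so these r depend on each other and cannot settle whether the numbers pair arrays. The replicate number as a block gave 10, 10, 8 and 7 calls against wild type, Ets1 null and Ets2 null and in the interaction. Over all probe sets it gave 9228, 8947, 9096 and 6353. In the single nulls it called 0 members. Causes were not tested. Low signal limits Ets1/2 null, where 3 of 18 member probe sets (Bcl2l1, Xiap 1456088_at and Bcl2l11 1426334_a_at) never exceeded 6.5 against 0 in the other groups. Other falls there rest in part on readings under 6.5. These are Bid 1448560_at and Bak1 in array 2 (5.18 and 6.38) and Bcl2l11 1435449_at in array 1 (6.07).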
